A study of Mus musculus with 77 samples.

Results

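The liver mRNAs of 5 genes were followed, Serpinc1, Apof, Acy1, Adamtsl2 and Akr1b10, which are mouse counterparts of human proteins measured in blood in the same study. The members were chosen by their symbols among the 55487 genes of the count table, each symbol being tied to its Ensembl identifier through the GRCm38 annotation. That rule uses no measured value of these livers, but the members and the gene lists below were chosen with earlier results of these data known. All 5 were found and all 5 passed the filter on low counts, as did 14904 genes in all. The direction examined was lower under the disease diet and higher under treatment for Serpinc1 and Apof, and the opposite for Adamtsl2, Acy1 and Akr1b10. Liver mRNA in mice and protein in human blood are different measurements, and no blood value was used.

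RNA sequencing was done on whole liver of 77 male C57BL/6JRj mice in 10 groups, 1 library per mouse. Metabolic dysfunction-associated steatohepatitis (MASH) was induced by diet with the Gubra Amylin NASH diet (40 kcal-% fat, 22% fructose, 10% sucrose and 2% cholesterol), started in mice aged 5 to 6 weeks at arrival and given for 34 weeks for the efficacy trial, with a liver biopsy 4 weeks before treatment on which mice were selected by their steatosis and fibrosis scores. Diet-fed mice then received vehicle (9, 8 and 7 mice at 8, 16 and 24 weeks), semaglutide at 123 µg/kg subcutaneously once daily (7, 8 and 8 mice), or a switch to chow with vehicle dosing, called chow reversal (7, 8 and 8 mice). Only the chow reversal mice were switched to chow, so semaglutide and chow reversal differ in diet as well as in drug. A group of 7 mice on chow with vehicle was sampled at 24 weeks, so that diet and chow can be compared directly at that time only. Semaglutide is a long-acting agonist of the glucagon-like peptide 1 (GLP-1) receptor. The model rests on diet alone, in 1 sex and 1 strain, and treated livers had all been biopsied earlier.

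Total counts per library ran from 8883150 to 37631072, with a median of 16406937. Values are given as CPM, read counts scaled to library size with trimmed mean of M values (TMM) factors, as mean ± SD over mice, and tests are edgeR quasi-likelihood tests on the counts with Benjamini-Hochberg adjustment over all 14904 genes at 0.05. The 3 semaglutide libraries numbered apart from the others carried 3.35% to 4.12% of counts in predicted genes, against 1.08% to 2.74% in the other 74 libraries. A vehicle library at 8 weeks stood in the numbering where chow reversal would fall, and its expression lay nearer to vehicle at 8 weeks (root mean square log2 distance 0.416) than to chow reversal at 8 weeks (0.807). All 10 hepatocyte markers were above 0 in every library, which does not test for admixture of other tissue. Of 10 markers of other tissues, 4 were also above 0 in every library. The summed level of those 10 ran from 161.8 CPM in a vehicle mouse at 24 weeks to 1577 CPM in a semaglutide mouse at 16 weeks. The median of that semaglutide group was 394.4 CPM.

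Serpinc1 encodes antithrombin, the liver-made serpin that inactivates thrombin and factor Xa and is secreted into plasma. Apof encodes apolipoprotein F, a secreted protein of lipoproteins that inhibits cholesteryl ester transfer. Acy1 encodes aminoacylase 1, a cytosolic enzyme that removes acetyl groups from N-acetylated amino acids. Adamtsl2 encodes a secreted glycoprotein of the extracellular matrix that binds fibrillin microfibrils and restrains transforming growth factor-β (TGF-β) signalling. Akr1b10 belongs to the aldo-keto reductases, enzymes that reduce aldehydes and retinal with NADPH. Circulating levels of such proteins depend on synthesis, secretion and clearance, and hepatocytes make most plasma proteins while stellate cells and fibroblasts make most matrix.

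The stretches upstream of the members' start sites are shown because the members moved in opposite directions across the groups. RefSeq held start regions for 4 of the 5 genes on GRCm38.p6, and Apof had none. The RefSeq start was used for each window and can differ from the gene spans given below, which are from GENCODE. The Acy1 window begins at 106438237, inside the gene span that ends at 106438319 on the minus strand. That of Akr1b10 ends at 34384246, past the start of its gene span at 34384218. Each sequence below is the 250 bases before the start, 5′ to 3′ on the gene's strand, with capitals for matches to 8 motifs searched on both strands: a TATA box (TATAAA), a GC box (GGGCGG), AP-1 (TGACTCA), an antioxidant response element (TGACNNNGC), an HNF1 half-site (GTTAAT), an HNF4 half-site (AAAGTCC), C/EBP (TTGCNNAA) and an E-box (CACGTG).
Serpinc1, chr1:160978333-160978582, plus strand: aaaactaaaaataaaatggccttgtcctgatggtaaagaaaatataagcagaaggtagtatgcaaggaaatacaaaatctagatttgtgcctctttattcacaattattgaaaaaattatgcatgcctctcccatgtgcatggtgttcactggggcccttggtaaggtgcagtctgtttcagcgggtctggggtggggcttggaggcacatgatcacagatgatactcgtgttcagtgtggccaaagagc
Acy1, chr9:106438237-106438486, minus strand: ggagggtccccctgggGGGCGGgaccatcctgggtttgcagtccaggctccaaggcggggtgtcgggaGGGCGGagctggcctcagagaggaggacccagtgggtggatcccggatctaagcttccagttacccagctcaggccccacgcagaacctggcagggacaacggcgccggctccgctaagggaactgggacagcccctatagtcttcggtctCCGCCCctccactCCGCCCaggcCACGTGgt
Adamtsl2, chr2:27079129-27079378, plus strand: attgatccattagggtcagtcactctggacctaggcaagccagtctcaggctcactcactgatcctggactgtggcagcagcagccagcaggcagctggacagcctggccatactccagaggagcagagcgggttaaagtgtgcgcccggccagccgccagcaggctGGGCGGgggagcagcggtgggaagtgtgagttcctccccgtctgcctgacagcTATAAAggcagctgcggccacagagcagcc
Akr1b10, chr6:34383997-34384246, plus strand: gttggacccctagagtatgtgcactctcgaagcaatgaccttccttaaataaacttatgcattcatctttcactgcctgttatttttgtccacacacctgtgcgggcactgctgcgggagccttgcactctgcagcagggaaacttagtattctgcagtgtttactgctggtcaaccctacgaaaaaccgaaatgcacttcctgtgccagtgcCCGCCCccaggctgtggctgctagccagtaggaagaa
The GC box stood 4 times in the window of Acy1 and 1 time each in those of Adamtsl2 and Akr1b10, and 32.7% of all 32851 promoters of the same length held it. Adamtsl2 had a TATA box beginning 30 bases before its RefSeq start (12.4% of promoters held the letters), and Acy1 an E-box beginning 8 bases before its own (6.02%). That E-box, and the Acy1 GC boxes beginning 31 and 18 bases before the RefSeq start, lie inside the GENCODE span of the gene. Serpinc1 held none of the 8 motifs in this window, at a GC content of 42.8% against a median of 52.4% over all promoters, while Acy1 and Adamtsl2 were at 68% and 62.8%. These letter matches are a description of the windows and were not tied to any value of the libraries.

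Per kilobase of principal transcript, the chow livers held 453 CPM of Serpinc1, 388 of Apof, 26.9 of Acy1, 2.01 of Adamtsl2 and 0.798 of Akr1b10. The members therefore span a wide range of depth: Serpinc1 was read by 16406 to 51948 counts per library, Apof by 3284 to 15084, Acy1 by 286 to 1248, Adamtsl2 by 68 to 4516 and Akr1b10 by 10 to 167. Akr1b10 rests on the fewest counts, while the standard errors of the fold changes were wider for Adamtsl2 (0.35 against 0.23 for vehicle against chow).

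**Figure D1:**
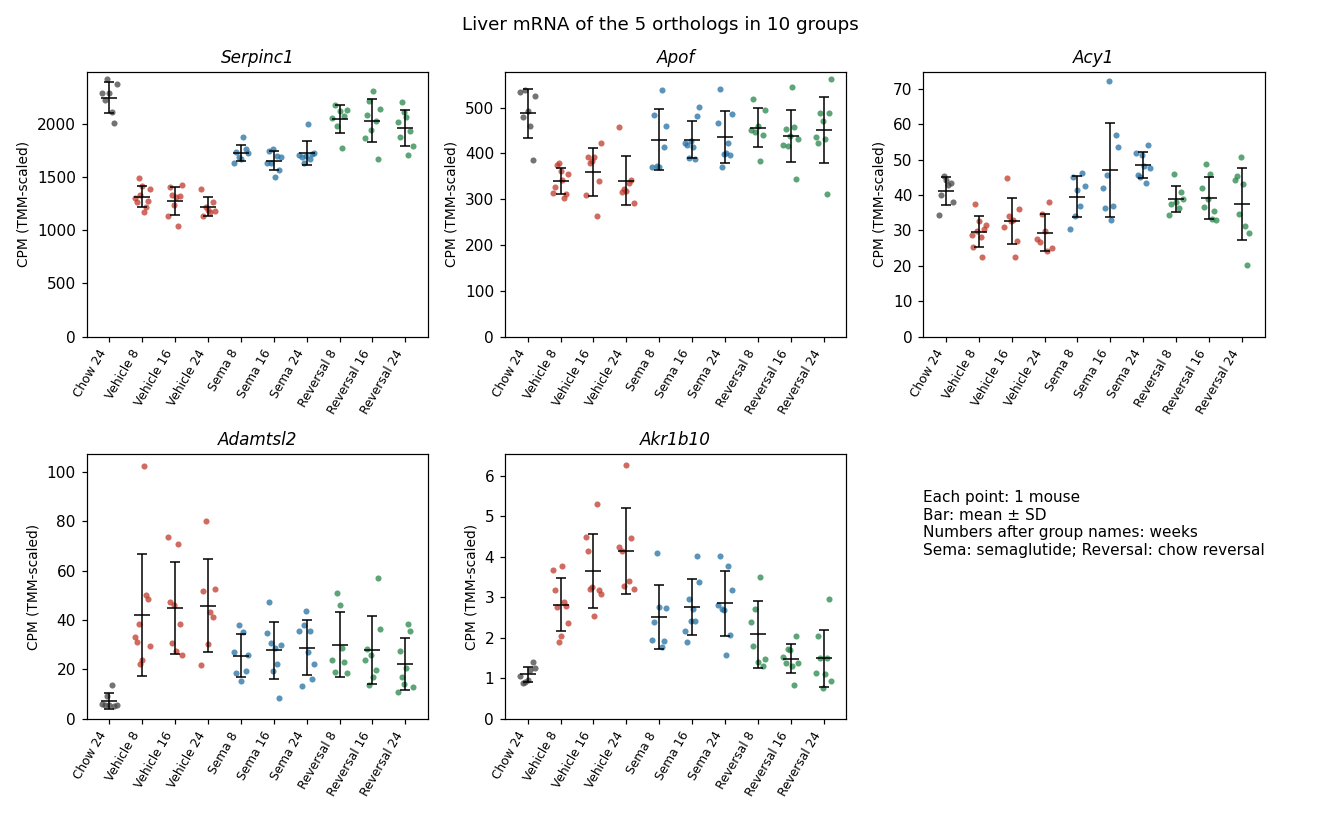
TMM-scaled CPM (vertical axes, from 0) of the 5 orthologs in each mouse (points) of the 10 groups (horizontal axes, weeks after the group name), with mean ± SD as bars. Serpinc1 runs in 4 levels, from vehicle (means 1225 to 1319) through semaglutide (1658 to 1733) and chow reversal (1968 to 2047) to chow (2252), while Adamtsl2 and Akr1b10 are lowest on chow.

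At 24 weeks Serpinc1, Apof and Acy1 were lower in vehicle livers than in chow livers and Adamtsl2 and Akr1b10 were higher. All 5 members passed the test, where 47.8% of all tested genes did, and in 3 of the 5 no vehicle mouse overlapped a chow mouse, where 22.3% of tested genes were so separated. This comparison sets diet-fed mice, selected on their biopsy scores, against chow mice that the study included without randomization. Diet and selection cannot be told apart in it, and changes with the diet below refer to this comparison.

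Serpinc1 lies on chromosome 1 of GRCm38 from 160978585 to 161005863 on the plus strand (ENSMUSG00000026715), and part of Zbtb37 overlaps it on the opposite strand, the use of strand in counting not being given in the sources used here. Its level was 2015, 2296 and 2425 CPM (lowest, median and highest) in the 7 chow mice and 1135, 1192 and 1395 in the 7 vehicle mice at 24 weeks. Every vehicle mouse was below every chow mouse, and Serpinc1 fell by 0.88 on the log2 scale (SE 0.069, adjusted p = 1.28e-17).

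Semaglutide raised Serpinc1 at each time, and chow reversal raised it further. At 24 weeks the 8 semaglutide mice ran from 1631 over 1705 to 2003 CPM and the 8 chow reversal mice from 1710 over 1980 to 2210. All semaglutide mice were above all vehicle mice of the same time at 8, 16 and 24 weeks (7 of 7, 8 of 8 and 8 of 8), and so were all chow reversal mice. The log2 fold changes against vehicle, called under every alternative run, were 0.39, 0.37 and 0.50 with semaglutide (adjusted p = 2.45e-05, 6.22e-05 and 4.96e-08) and 0.63, 0.67 and 0.68 with chow reversal (adjusted p = 2.61e-12, 2.7e-13 and 3.73e-13), all with SE between 0.064 and 0.067. Both sets of comparisons use the same vehicle mice.

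Serpinc1 differed between the treatments at all 3 times. Set directly against chow reversal, the semaglutide level was lower by log2 differences of −0.24, −0.30 and −0.18 (adjusted p = 0.0196, 0.001 and 0.0385). At 24 weeks it was still below chow under semaglutide in 8 of 8 mice (−0.38, adjusted p = 5.47e-06), and under chow reversal the difference from chow did not pass (−0.19, interval −0.33 to −0.06, adjusted p = 0.0611), though it did with DESeq2 and with the block on library number (adjusted p = 0.0334 and 0.0484). The difference from chow reversal at 24 weeks was lost under several other settings, with values down to −0.12 (adjusted p = 0.136, scaling by library totals), and that at 8 weeks under library totals and without the filter (adjusted p = 0.258 and 0.107). That at 16 weeks was lost when only the 2 groups were fitted (adjusted p = 0.0829).

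Apof lies on chromosome 10 from 128268671 to 128270153 on the plus strand (ENSMUSG00000047631). By group means it was lowest on vehicle and highest on chow, in a narrower range than Serpinc1. Semaglutide and chow reversal lay between and were not separated from each other. The chow mice held 385.8, 493.4 and 537.8 CPM and the vehicle mice at 24 weeks 292, 323 and 458, with 6 of 7 vehicle mice below all chow mice. Apof fell by 0.52 on the log2 scale with the diet (SE 0.10, adjusted p = 1.89e-05).

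Apof rose with semaglutide at 8 and 24 weeks and with chow reversal at each time. With semaglutide the log2 fold changes were 0.34 (adjusted p = 0.0225), 0.26 (adjusted p = 0.0624, not passed in edgeR) and 0.35 (adjusted p = 0.00605), and the semaglutide mice at 24 weeks ran from 370 over 412 to 540 CPM, overlapping the vehicle mice. The value at 16 weeks passed in DESeq2 (0.26, adjusted p = 0.0459). With chow reversal they were 0.42, 0.28 and 0.41 (adjusted p = 0.000424, 0.0194 and 0.000748), and at 8 weeks all 7 chow reversal mice lay above all vehicle mice. Semaglutide and chow reversal did not pass against each other for Apof, with differences of −0.09, −0.03 and −0.05 whose 95% intervals lay between −0.29 and 0.17.

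The fall of Apof with the diet and its rises did not survive scaling by library totals. Scaling by RLE factors ended none of these calls. With library totals in place of TMM, the median of all genes shifted by 0.42 in vehicle against chow and by −0.13, −0.18 and −0.23 in semaglutide against vehicle. On that scale the diet difference was −0.10 (adjusted p = 0.305) and those of semaglutide were 0.20 at 8 weeks (adjusted p = 0.0842) and 0.12 at 24 weeks (adjusted p = 0.247), and none of the chow reversal differences passed (0.15, 0.03 and 0.11). Of all calls in vehicle against chow, 54.1% were higher with TMM and 89.8% with library totals. The call at 8 weeks with semaglutide was also lost without the off-place vehicle library (0.32, adjusted p = 0.0538) and without the filter (0.33, adjusted p = 0.0648), and that of chow reversal at 16 weeks without the filter (0.28, adjusted p = 0.0536) and when only the 2 groups were fitted (0.27, adjusted p = 0.0524).

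Serpinc1 and Apof belong among genes of clotting and lipid transport that were counted as lists. The same counts over all 14904 genes tested give the background for these lists and those below. With the diet 3272 of all genes fell and 3849 rose. With semaglutide 334, 960 and 1604 rose and 523, 864 and 2021 fell at 8, 16 and 24 weeks. With chow reversal 2117, 1797 and 2530 rose and 2665, 2410 and 2849 fell. With library totals in place of TMM, 887 of all genes fell and 7776 rose with the diet. On that scale 154, 357 and 510 rose and 1054, 2367 and 4340 fell with semaglutide. With chow reversal 667, 593 and 687 rose and 5936, 5069 and 5453 fell. Whether a list differs from all genes was not tested. Of 19 coagulation genes, 15 fell and 2 rose with the diet (median log2 fold change −0.80 against −0.02 over all genes tested), 7, 6 and 12 rose and 0, 0 and 1 fell with semaglutide at 8, 16 and 24 weeks, and 12, 13 and 15 rose and 2, 1 and 1 fell with chow reversal. With library totals 11 fell and 2 rose with the diet, 6, 2 and 8 rose and 0, 0 and 2 fell with semaglutide, and 9, 8 and 11 rose and 4, 2 and 2 fell with chow reversal. Serpind1, heparin cofactor II, fell by 0.92 with the diet (adjusted p = 3.94e-14) and rose by 0.56 with semaglutide at 24 weeks (adjusted p = 1.58e-06). F7, clotting factor VII, changed by −0.89 and 0.95 (adjusted p = 1.14e-05 and 1.81e-05), and Plg, plasminogen, by −1.03 and 0.61 (adjusted p = 1.22e-12 and 1.53e-05).

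Of 18 lipoprotein genes, 9 fell and 3 rose with the diet, and 5, 5 and 9 rose with semaglutide while 1 fell at each time. Chow reversal raised 9, 6 and 7 and lowered 3, 2 and 2. With library totals 4 fell and 5 rose with the diet, and at 24 weeks 6 rose and 2 fell with semaglutide and 3 rose and 4 fell with chow reversal. Lcat, which esterifies cholesterol on high-density lipoprotein, fell by 0.85 with the diet and rose by 0.68 with semaglutide at 24 weeks (adjusted p = 3.44e-09 and 4.67e-06). Lipc, hepatic lipase, changed by −1.03 and 0.91 (adjusted p = 4.99e-08 and 5.39e-06), and Apoh, apolipoprotein H, by −0.85 and 0.67 (adjusted p = 6.54e-07 and 0.000186).

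The summed hepatocyte markers moved with these genes. With TMM scaling their median was 135300 CPM on chow, 70330 to 77000 on vehicle, 92290 to 110000 on semaglutide and 115400 to 125500 on chow reversal. Of the 10 markers, 9 fell with the diet, and 5, 6 and 7 rose with semaglutide at 8, 16 and 24 weeks. With library totals 7 fell and 1 rose with the diet, and 4, 2 and 5 rose with semaglutide. The groups' ranges were 121900 to 153300 on chow and 64990 to 79800 on vehicle at 24 weeks, and from 76950 to 141700 on semaglutide at 24 weeks. In bulk liver, fewer cells of a type and less RNA per cell cannot be told apart, and the part of the hepatocyte share in the levels of Serpinc1, Apof and Acy1 was not tested.

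**Figure D2:**
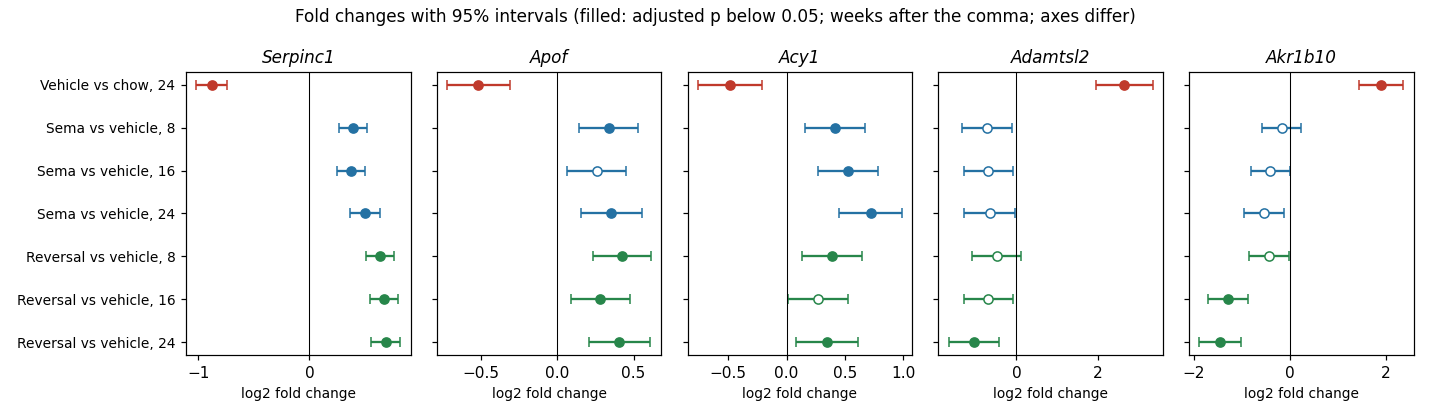
Log2 fold changes (horizontal axes, whose ranges differ between panels) of the 5 orthologs with 95% intervals for vehicle against chow at 24 weeks (red), semaglutide against vehicle (blue) and chow reversal against vehicle (green) at 8, 16 and 24 weeks. Filled points passed the test. In Serpinc1, Apof and Acy1 the treatment points lie to the right of 0 and the diet point to the left, and in Adamtsl2 and Akr1b10 the sides are exchanged.

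Acy1 lies on chromosome 9 from 106432981 to 106438319 on the minus strand (ENSMUSG00000023262). Its direction in these livers was the reverse of the direction examined: Acy1 was lower with the diet and higher with treatment. The chow mice held 34.3, 42.7 and 45.5 CPM and the vehicle mice at 24 weeks 24.09, 27.63 and 38.04, with 5 of 7 vehicle mice below all chow mice (log2 fold change −0.49, SE 0.14, adjusted p = 0.00256). With library totals this difference was −0.07 (adjusted p = 0.645).

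Acy1 rose with semaglutide at each time, by log2 fold changes of 0.42, 0.53 and 0.72 (adjusted p = 0.0411, 0.00434 and 5.16e-05). The semaglutide mice at 24 weeks held 43.32, 47.96 and 53.96 CPM, all 8 above all vehicle mice of that time, and at 16 weeks they spread from 32.9 over 43.7 to 72.2, with 4 of 8 above all vehicle mice. With chow reversal Acy1 rose at 8 and 24 weeks (0.39 and 0.35, adjusted p = 0.016 and 0.0361) and did not pass at 16 weeks (0.27, adjusted p = 0.115). That at 24 weeks was also lost without the filter and with only the 2 groups fitted (adjusted p = 0.0655 and 0.164). With library totals neither chow reversal call held (0.12 and 0.04, adjusted p = 0.374 and 0.829), and that of semaglutide at 16 weeks was lost when only the 2 compared groups were fitted (0.54, adjusted p = 0.0736).

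Acy1 stood higher under semaglutide than under chow reversal at 24 weeks (log2 difference 0.37, SE 0.13, adjusted p = 0.0371). The mean at that time was 48.4 ± 3.69 CPM (SD, n = 8) under semaglutide, 37.4 ± 10.2 (n = 8) under chow reversal and 41.1 ± 3.97 (n = 7) on chow, and semaglutide did not pass against chow (0.23, interval −0.03 to 0.50, adjusted p = 0.174). Semaglutide did pass against chow with library totals (0.43, adjusted p = 0.0023) and when semaglutide and chow were fitted alone (0.24, adjusted p = 0.0367), and against chow reversal at 16 weeks with library totals (0.32, adjusted p = 0.0431). The call against chow reversal at 24 weeks was lost when only those 2 groups were fitted (0.39, adjusted p = 0.139) and without the filter (0.38, adjusted p = 0.0606). That of semaglutide at 8 weeks was lost under 4 settings (adjusted p = 0.0722 to 0.101), among them without the vehicle library that stood off its place (0.38, adjusted p = 0.101).

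Other genes that handle acylated amino acids and peptides were lower with the diet. All 7 of that list fell with the diet (median log2 fold change −0.62), 1, 1 and 4 of 7 rose with semaglutide and 5, 3 and 4 with chow reversal, and none passed in the other direction. With library totals 2 of 7 fell with the diet, 0, 0 and 1 rose with semaglutide and 3, 2 and 2 rose with chow reversal. Abhd14b, a lysine deacetylase, changed by −0.56 with the diet and by 0.53 with semaglutide at 24 weeks (adjusted p = 0.000386 and 0.00193). Apeh, the acylpeptide hydrolase, changed by −0.36 and 0.34 (adjusted p = 0.00388 and 0.0121), and Aspa, aspartoacylase, by −0.78 and 0.52 (adjusted p = 0.000697 and 0.039).

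Adamtsl2 lies on chromosome 2 from 27079379 to 27108981 on the plus strand (ENSMUSG00000036040). It had the widest response to the diet among the members. The chow mice held 5.12, 5.74 and 13.6 CPM and the vehicle mice at 24 weeks 21.65, 43.02 and 80.15, every vehicle mouse lying above every chow mouse, and Adamtsl2 rose by 2.66 on the log2 scale (SE 0.35, adjusted p = 1.48e-09), a fold change of 6.32.

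Adamtsl2 fell with chow reversal at 24 weeks, and no single semaglutide comparison passed with TMM. The vehicle means were 42.1 ± 24.6, 44.9 ± 18.6 and 45.8 ± 18.8 CPM (SD, n = 9, 8 and 7) and the semaglutide means 25.6 ± 8.62, 27.6 ± 11.5 and 28.83 ± 11.03 (n = 7, 8 and 8). The log2 fold changes with semaglutide were −0.72, −0.70 and −0.66 with SE of 0.30 to 0.31 (adjusted p = 0.158, 0.112 and 0.11), and 3 of 7, 3 of 8 and 2 of 8 semaglutide mice lay below all vehicle mice. The test of the 3 semaglutide effects together passed (adjusted p = 0.0131), as it did for all 5 members and for 30.9% of all genes tested.

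Chow reversal changed Adamtsl2 by −0.49, −0.69 and −1.05 (adjusted p = 0.213, 0.0781 and 0.00595), with means of 29.9 ± 13.2, 27.7 ± 13.8 and 22.1 ± 10.6 CPM (n = 7, 8 and 8). At 24 weeks the gene remained above chow under both treatments, by 2.00 with semaglutide (adjusted p = 3.09e-06) and 1.61 with chow reversal (adjusted p = 0.000917), and it was the only member called against chow after chow reversal in edgeR, where DESeq2 also called Serpinc1 (−0.18, adjusted p = 0.0334). Semaglutide and chow reversal did not pass against each other at any time, with intervals between −0.88 and 0.99. With library totals the semaglutide differences passed at 16 and 24 weeks (−0.88 and −0.87, adjusted p = 0.0481 and 0.0388) and those of chow reversal at 8 weeks, at the threshold, and 16 weeks (−0.78 and −0.93, adjusted p = 0.05 and 0.0187).

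Variation between mice of 1 group was widest for Adamtsl2 and Akr1b10. The coefficient of variation of Adamtsl2 was 33.7% to 58.4% over the 10 groups, and that of Serpinc1 4.54% to 10.4%. The highest Adamtsl2 value of all, 102 CPM, was vehicle replicate 6 at 8 weeks, from the deepest library (37631072 counts), with the next vehicle mouse of that time at 50.1.

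The genes most like Adamtsl2 over the 77 libraries were Mrc2, a collagen uptake receptor, Mmp2, a gelatinase, and Cygb, a globin of stellate cells, with Pearson correlations of log2 CPM of 0.95, 0.94 and 0.93 among 12211 genes ranked. Within groups, after removal of group means, they were 0.90, 0.86 and 0.87. These genes were picked on the same libraries with group differences included, so their changes below are not separate support. Mmp2 rose by 3.48 with the diet and fell by 0.90 with semaglutide at 24 weeks (adjusted p = 4.22e-12 and 0.0292), and Mrc2 changed by 3.13 and −0.92 (adjusted p = 1.02e-12 and 0.0107). Cygb rose by 2.10 with the diet (adjusted p = 1.3e-11) and its semaglutide difference at 24 weeks was −0.41 (adjusted p = 0.166).

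Of 19 genes of fibrillin microfibrils and TGF-β, 17 were tested. The diet raised 15 of 17 (median log2 fold change 1.95). Semaglutide lowered 5, 7 and 10 of the 17, and chow reversal lowered 10, 9 and 10. None of the 17 passed in the other direction in these comparisons. Of all 14904 genes tested, the diet raised 3849 and semaglutide lowered 523, 864 and 2021. Chow reversal lowered 2665, 2410 and 2849 of all genes. Fbn1, fibrillin 1, rose by 2.34 with the diet and fell by 1.05 and 1.31 with semaglutide at 8 and 24 weeks (adjusted p = 9.32e-11, 0.00433 and 8.49e-05). Adamtsl4, a paralog that also binds microfibrils, rose by 1.15 and fell by 0.47 and 0.49 (adjusted p = 1.64e-08, 0.0469 and 0.0139), and Tgfb2, a TGF-β ligand, changed by 2.41, −1.35 and −1.63 (adjusted p = 1.78e-06, 0.0169 and 0.000877).

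The summed stellate and fibroblast markers moved with Adamtsl2. Their median was 206 CPM on chow (190 to 266), 701 to 802 on vehicle (567 to 1076), 474 to 561 on semaglutide (255 to 748) and 334 to 414 on chow reversal (264.7 to 567.7). Of the 12 markers, 11 rose and 1 fell with the diet, 4, 3 and 5 fell and 0, 1 and 0 rose with semaglutide, and 8, 5 and 8 fell and 0, 0 and 1 rose with chow reversal. Of these, Hhip was at 0 in 2 libraries. Col1a1, the chain of type I collagen, rose by 4.31 with the diet and fell by 1.54 with semaglutide at 24 weeks (adjusted p = 3.15e-15 and 0.000281). The markers of cholangiocytes, the cells of bile ducts, moved as well. Their summed median was 49.9 CPM on chow (41.97 to 57.75), 196.7 to 258.6 on vehicle (87.9 to 526.9), 85.8 to 107.2 on semaglutide (51.7 to 233.9) and 77.1 to 115.7 on chow reversal (48.4 to 541.6). Of the 8 markers, 7 rose with the diet (median log2 fold change 2.35), 3, 1 and 2 fell with semaglutide (medians −1.12, −0.84 and −0.96) and 0, 3 and 1 fell with chow reversal, and 1 of them, Cftr, was at 0 in 5 libraries. The part of either cell type in the level of Adamtsl2 was not tested.

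**Figure D3:**
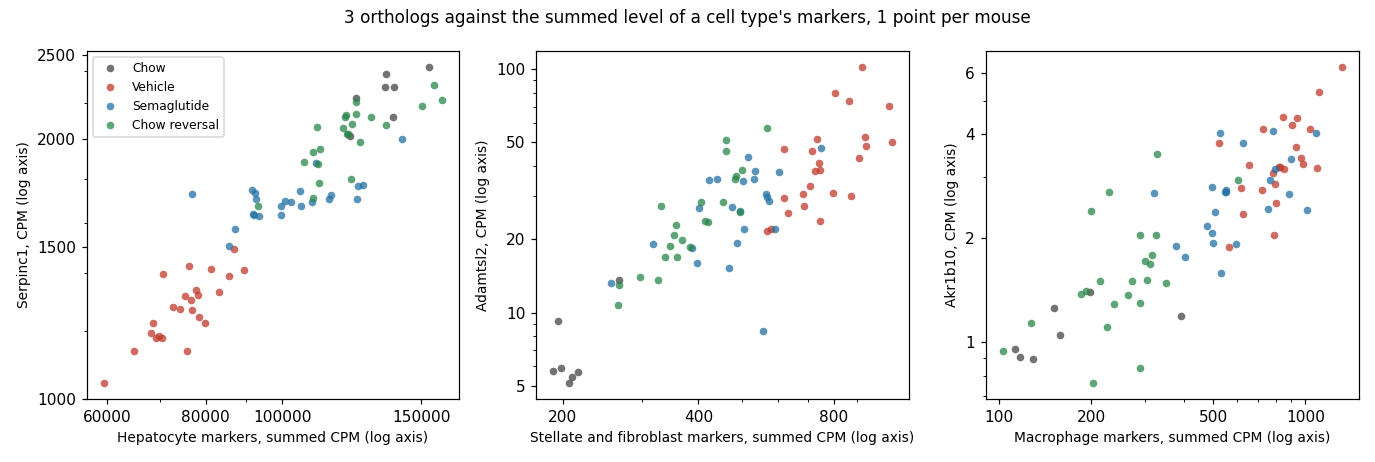
CPM of Serpinc1, Adamtsl2 and Akr1b10 (vertical log axes) against the summed CPM of hepatocyte, stellate and fibroblast, and macrophage markers (horizontal log axes), 1 point per mouse, coloured by treatment with the times together. Chow and vehicle mice sit at opposite ends of each panel, with marker medians of 135300 and 70330 to 77000 CPM for hepatocytes, 206 and 701 to 802 for stellate cells, and 151 and 721 to 969 for macrophages.

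Akr1b10 lies on chromosome 6 from 34384218 to 34396950 on the plus strand (ENSMUSG00000061758), between Akr1b8 (34354119 to 34368463) and Akr1b7 (34412334 to 34423142). The chow mice held 0.895, 1.05 and 1.40 CPM and the vehicle mice at 24 weeks 3.20, 4.14 and 6.26, with every vehicle mouse above every chow mouse. Akr1b10 rose by 1.90 on the log2 scale (SE 0.23, adjusted p = 1.2e-10).

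Chow reversal lowered Akr1b10 at 16 and 24 weeks in every mouse, and semaglutide did not pass in edgeR with TMM at any single time. The log2 fold changes with chow reversal were −0.44, −1.29 and −1.46 (adjusted p = 0.0997, 1.16e-06 and 8.86e-08), and the chow reversal mice at 24 weeks held 0.762, 1.32 and 2.95 CPM, 8 of 8 below all vehicle mice. With semaglutide they were −0.17, −0.41 and −0.53 (adjusted p = 0.725, 0.175 and 0.0515), and 6 of 8 semaglutide mice at 24 weeks were below all vehicle mice. The value at 24 weeks stood at the threshold, passing in DESeq2 (adjusted p = 0.0475), with a block on runs of adjacent library numbers (−0.59, adjusted p = 0.032) and with library totals (−0.77, adjusted p = 0.0063). Library totals also brought past the threshold semaglutide at 16 weeks (−0.60, adjusted p = 0.0437) and chow reversal at 8 weeks (−0.71, adjusted p = 0.00902).

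The treatments differed for Akr1b10. Semaglutide livers held more of it than chow reversal livers at 16 and 24 weeks, by 0.89 and 0.93 on the log2 scale (adjusted p = 0.00295 and 0.00161), and the call at 24 weeks was lost in a fit of those 2 groups alone (adjusted p = 0.0575). At 24 weeks semaglutide was above chow in 8 of 8 mice (1.37, adjusted p = 1.98e-06), and chow reversal was not shown to differ from chow (0.45, interval −0.02 to 0.92, adjusted p = 0.295).

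The chow reversal effect at 24 weeks minus that at 8 weeks was −1.02 (interval −1.61 to −0.42), a test chosen after the values were seen, and it did not pass adjustment (adjusted p = 0.151). In vehicle livers the level was 2.82 ± 0.66, 3.65 ± 0.91 and 4.14 ± 1.06 CPM (SD, n = 9, 8 and 7) at 8, 16 and 24 weeks, and 24 against 8 weeks did not pass either (0.55, adjusted p = 0.235).

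Akr1b10 shares sequence with its neighbours, which bears on how reads were assigned. Its transcript of 1371 bases aligned to that of Akr1b7 with 89.4% identity over 963 columns, to Akr1b8 with 81.0% over 1266 and to Akr1b3 with 74.2% over 980. Of the 1341 words of 31 bases in it, 94 (7.01%) also stood in Akr1b8, 88 (6.56%) in Akr1b7 and 0 in Akr1b3. The longest identical runs inside its coding part were taken from the GRCm38 transcript sequences of GENCODE. A read lying wholly inside such a run cannot be told apart by sequence alone. The runs were not compared with the read length.
Akr1b10 and Akr1b8, 80 bases of exons 5 and 6 (chr6:34392062-34392390 with the intron, plus strand): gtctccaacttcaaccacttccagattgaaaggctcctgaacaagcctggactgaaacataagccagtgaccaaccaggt
Akr1b10 and Akr1b7, 59 bases of exon 3 (chr6:34388788-34388846, plus strand): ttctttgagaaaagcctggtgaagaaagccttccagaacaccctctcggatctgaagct
Akr1b10 and Akr1b3, 23 bases of exon 8 (chr6:34394094-34394116, plus strand): gtgatccccaagtctgtgacacc
Salmon divides such reads by estimation, so the values of Akr1b10, Akr1b7 and Akr1b8 are uncertain to that extent, and those of Akr1b3 share no word of that length.

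The paralogs did not all follow Akr1b10 with the diet. Akr1b3, aldose reductase, rose from 6.45 ± 0.55 to 18.7 ± 3.25 CPM (SD, n = 7 and 7), by 1.53 on the log2 scale (adjusted p = 2.07e-12). Akr1b7 was at 0.148 ± 0.122 CPM on chow, reaching 0 in some mice, and at 2.93 ± 1.03 on vehicle (log2 fold change 4.23, SE 0.53, adjusted p = 3.03e-10). Akr1b8 was at 3.69 ± 0.85 and 4.56 ± 1.66 CPM and was not shown to differ (0.30, interval −0.15 to 0.75, adjusted p = 0.281).

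With treatment at 24 weeks, semaglutide lowered Akr1b3 (−0.53, adjusted p = 0.00736) and Akr1b8 (−0.64, adjusted p = 0.026), and that of Akr1b7 was −0.78 (adjusted p = 0.131). Chow reversal lowered all 3 at 24 weeks, by 1.18, 0.72 and 2.38 for Akr1b3, Akr1b8 and Akr1b7 (adjusted p = 4.69e-09, 0.00732 and 5.11e-06). As for Akr1b10, Akr1b3 and Akr1b7 stood higher under semaglutide than under chow reversal at 16 and 24 weeks (0.73 and 0.64 for Akr1b3, adjusted p = 0.000561 and 0.00216).

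**Figure D4:**
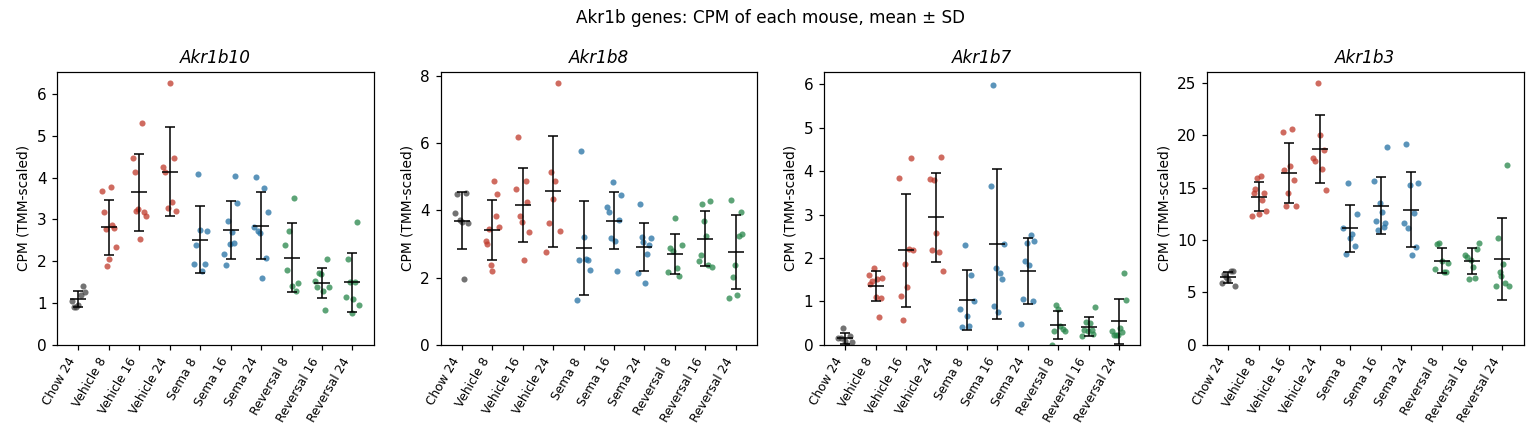
TMM-scaled CPM (vertical axes, from 0, ranges differing between panels) of Akr1b10 and its 3 paralogs in each mouse (points) of the 10 groups (horizontal axes, weeks after the group name), with mean ± SD as bars. Akr1b10, Akr1b7 and Akr1b3 are lowest on chow (means 1.09, 0.148 and 6.45 CPM) and highest on vehicle at 24 weeks, while Akr1b8 is at 3.69 CPM on chow and 2.697 to 4.561 in the other groups.

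The genes most like Akr1b10 were Evl, an actin regulator, Fcgr1, the high-affinity IgG receptor of macrophages, and Cd300c2, a myeloid receptor, with correlations over the 77 libraries of 0.89, 0.88 and 0.88 and within groups of 0.62, 0.60 and 0.62. Fcgr1 changed by 3.50 with the diet, and at 24 weeks by −1.03 with semaglutide and −2.305 with chow reversal (adjusted p = 1.65e-17, 0.000562 and 4.73e-12). It was picked on the same libraries, so these changes are not separate support. The summed macrophage markers had a median of 151 CPM on chow (113 to 393), 721 to 969 on vehicle (522 to 1312), 550 to 642 on semaglutide (321 to 1086) and 220 to 295 on chow reversal (103 to 602). Of the 10 markers, 8 rose with the diet, 0, 3 and 6 fell and 0, 0 and 1 rose with semaglutide and 7, 8 and 8 fell with chow reversal, and all 10 were above 0 in every library. The part of macrophages in the level of Akr1b10 was not tested.

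For the secreted and metabolic members the nearest genes were of other kinds. Serpinc1 was most like Serpina1d, Serpina1a and Serpind1, liver serpins, at correlations of 0.96, 0.95 and 0.94 (within groups 0.72, 0.64 and 0.72). The Serpina1 genes are near-identical copies whose reads can be split in counting. Among the genes most like Acy1 were Hpd, of tyrosine breakdown, and Fn3k, fructosamine 3-kinase, at 0.89 and 0.86 (within groups 0.79 and 0.75). Apof was most like Serpina1a, Fh1, the fumarase, and Smu1, a splicing factor, at 0.83, 0.81 and 0.81. These libraries share groups and depth, and the correlations are descriptions.

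Hpd ranked first for Acy1 by correlation over the same libraries, so its changes are not separate support. It rose by 0.75 and 1.14 with semaglutide at 8 and 24 weeks (adjusted p = 0.001 and 3.5e-07) and by 0.56 with chow reversal at 24 weeks (adjusted p = 0.00425), having fallen by 0.70 with the diet (adjusted p = 0.000354).

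Among the members, over the 77 libraries, Apof and Serpinc1 ran together (Pearson correlation 0.79, within groups 0.63) and Serpinc1 and Akr1b10 ran apart (−0.79, within groups −0.46). Adamtsl2 and Akr1b10 correlated at 0.60 over all libraries and 0.23 within groups. Acy1 correlated with Serpinc1 at 0.53 and 0.41.

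The counts of members called in each treatment comparison can be set beside those of all genes. Semaglutide against vehicle called 3, 2 and 3 of 5 at 8, 16 and 24 weeks, all higher, where 5.75%, 12.2% and 24.3% of tested genes were called. In 1, 1 and 2 of 5 the groups did not overlap, against 1.85%, 0.899% and 4.12% of genes. Chow reversal against vehicle called 3, 3 and 5 of 5, where 32.1%, 28.2% and 36.1% of genes were called, and in 2 of 5 at each time the groups did not overlap, against 11.1%, 7.75% and 6.91%.

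Semaglutide against chow reversal called 1, 2 and 3 of 5, where 6.16%, 9.8% and 16.5% of genes were called. Against chow at 24 weeks semaglutide called 3 of 5 (31.4% of genes), in 2 of which the groups did not overlap (6.76% of genes), and chow reversal 1 of 5 (6.63%). Between 24 and 8 weeks no member was called in edgeR or DESeq2 within vehicle, semaglutide or chow reversal, where 0.792%, 0.0134% and 0.047% of genes were called, and at an unadjusted p under 0.05 there was 1 in each (Akr1b10, Acy1 and Akr1b10). No member's semaglutide effect differed between 24 and 8 weeks in edgeR or DESeq2 (0.0604% of genes were called, and 0 members had an unadjusted p under 0.05), nor did a chow reversal effect (0.215%, 1 member).

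The other orthologs of the study's serum proteins were counted in the same way. They formed a list of 48 genes whose human protein lay below placebo under treatment and a list of 13 whose protein lay above it, and this sorting came from human blood. Of the 48, 46 were tested, and 27 fell and 10 rose with the diet (median log2 fold change −0.34). Semaglutide raised 3, 16 and 17 and lowered 2, 2 and 7 of the 46. Chow reversal raised 19, 19 and 18 and lowered 9, 6 and 9 of the 46. Of all 14904 genes tested, semaglutide raised 334, 960 and 1604 and lowered 523, 864 and 2021. Chow reversal raised 2117, 1797 and 2530 and lowered 2665, 2410 and 2849 of all genes. With library totals 11 of the list fell and 18 rose with the diet, where 887 of all genes fell and 7776 rose. Semaglutide at 24 weeks then raised 8 and lowered 12 of the 46, where 510 of all genes rose and 4340 fell.

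Within that list the named genes went both ways. Gusb, the lysosomal β-glucuronidase, rose by 1.33 with the diet and fell by 0.42 and 0.77 with semaglutide at 8 and 24 weeks (adjusted p = 1.28e-17, 0.00318 and 2.19e-08), and Ugdh, which makes UDP-glucuronate, rose by 0.51 and fell by 0.55 and 1.08 (adjusted p = 0.00978, 0.0255 and 1.07e-06). Nit2, an ω-amidase, fell by 0.92 and rose by 0.39 and 0.73 (adjusted p = 1.78e-08, 0.0475 and 1.81e-05).

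Of the 13 genes of the other list, 7 were tested. With the diet 3 rose and 1 fell, and with semaglutide 0, 0 and 1 rose and 1, 2 and 1 fell. Ccn5, a matricellular protein, fell by 1.95 and 3.63 with semaglutide at 8 and 24 weeks (adjusted p = 0.00512 and 7.76e-09), and Gas1, a hedgehog co-receptor, fell by 1.02 with the diet and rose by 0.75 with semaglutide at 24 weeks (adjusted p = 2.4e-06 and 0.00102). Ptprs, a receptor phosphatase, rose by 0.74 with the diet (adjusted p = 0.000186) and had a semaglutide difference of −0.33 at 24 weeks (adjusted p = 0.123).

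**Figure D5:**
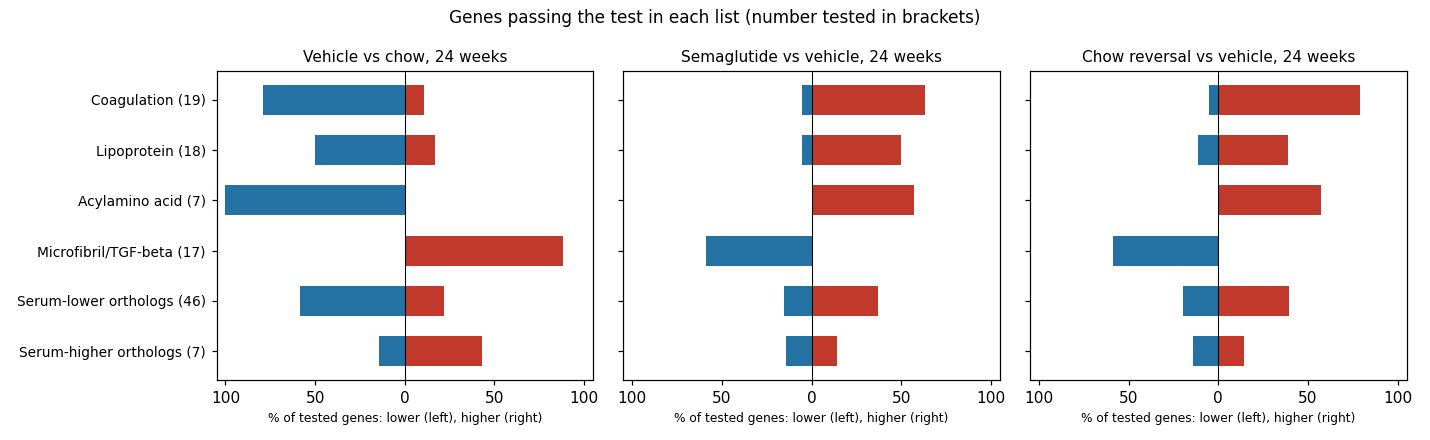
Percentage of the tested genes of 6 lists (numbers tested in brackets) that passed the test as lower (left of 0, blue) or higher (right of 0, red) at 24 weeks in vehicle against chow, semaglutide against vehicle and chow reversal against vehicle. The coagulation bar runs mainly left with the diet (15 of 19) and mainly right with semaglutide (12 of 19), and the microfibril and TGF-β bar runs the other way (15 of 17 higher with the diet).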

How the data were processed

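Per the labels and the study's methods, libraries were made with NEBNext Ultra II Directional kits and sequenced on a NextSeq instrument, and the authors deposited 1 table of estimated counts per gene from STAR 2.7.3a and Salmon 1.2.0 on GRCm38, with FastQC 0.11.9, Picard and DESeq2 also named. The annotation release and strand setting are not given in the sources used here. Of the values, 7.55% were fractional and were rounded for tests. Symbols for 55141 of 55487 identifiers came from GENCODE M21, and principal transcripts gave lengths. Genes with enough counts in a group of the smallest size were kept (filterByExpr, 14904 genes). All 10 groups were fitted together in edgeR with TMM factors and no covariate. Intervals are 95%. The simulated-data test of the fit used fixed seeds.

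Genes named beyond the members were the Akr1b paralogs, the 3 genes most correlated with each member (average log2 CPM above 0) and up to 3 per list by the joint semaglutide test. Members and lists were chosen with earlier results of these data known. Alternatives were DESeq2, RLE factors, library totals, no filter, only the compared groups, leaving out libraries, and a block on library number in sets of 10. The change of the chow reversal effect between times and the leaving out of single high mice were added after the values were seen. Human, proteomic and other-model data were not analysed here, and 0 columns were left unused.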

Additional observations from a re-analysis of the deposited data

Results flagged for a closer look

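In 80 sets of values (8 genes in 10 groups), 8 had a highest or lowest mouse whose gap to the next exceeded Dixon's 95% critical value, where chance flags about 1 in 20 sets. For Adamtsl2, vehicle replicate 6 at 8 weeks was at 102.2 CPM with the next mouse at 50.1. For Apof, vehicle replicate 1 at 24 weeks was at 458.1 with the next at 341.9. For Serpinc1, semaglutide replicate 5 at 24 weeks was at 2003 with the next at 1727. For Akr1b10, vehicle replicate 4 at 24 weeks was at 6.26 with the next at 4.46, and semaglutide replicate 3 at 8 weeks at 4.09 with the next at 2.76. That same mouse was highest for Akr1b8, at 5.76 with the next at 3.21. For Akr1b3, chow reversal replicate 7 at 24 weeks was at 17.2 with the next at 10.2, and for Akr1b8, chow replicate 5 was lowest at 1.97 with the next at 3.63. Leaving out the 5 libraries flagged for members, 1 at a time, ended no call of that gene in the comparisons with its group and added none.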

How the results depend on the processing

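No paired analysis was possible because each mouse was killed at 1 time and replicate numbers follow only the order of deposit. A block on sets of 10 library numbers (a replicate block in name only) moved the members called in chow reversal against chow from 1 to 2, as DESeq2 did (2), and no other such count by over 1.5 times. With library totals, members called were 1 for semaglutide against vehicle at 8 weeks, 4 at 16 weeks, 3 for chow reversal against vehicle at 24 weeks, 0 for semaglutide against chow reversal at 8 weeks and 3 for vehicle against chow. Without the filter they were 1 for semaglutide against vehicle at 8 weeks, and 0 and 1 for semaglutide against chow reversal at 8 and 24 weeks. With only the compared groups they were 1 for semaglutide against vehicle at 16 weeks and 1 and 0 for semaglutide against chow reversal at 16 and 24 weeks, and without the off-place library 1 for semaglutide against vehicle at 8 weeks. No called member changed sign under any alternative run. The cause was not tested.

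Over all genes, calls for semaglutide against vehicle at 16 weeks went from 1824 to 742 without the 3 libraries numbered apart, to 713 with the block and to 533 with only the compared groups, and at 8 weeks from 857 to 547 without the off-place library, 565 without the filter and 2115 with only the compared groups. For chow reversal against vehicle at 24 weeks they went from 5379 to 3585 with only the compared groups. For semaglutide against chow reversal they went from 918 to 1527 with library totals and 2999 with only the compared groups at 8 weeks, from 1460 to 869 without the libraries numbered apart and 801 with only the compared groups at 16 weeks, and from 2457 to 515 with only the compared groups at 24 weeks. For chow reversal against chow they went from 988 to 129 with only the compared groups. Between 24 and 8 weeks in semaglutide DESeq2 called 565 genes and edgeR 2. Akr1b10, at 10 to 167 counts, has the widest counting error among the members.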
